A study of Mus musculus with 51 samples.

Results

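The forelimb bud at E13.5 was set against the forelimb bud at E12.5, on 10 of the 51 arrays of a mouse limb series. The members are the 5 arrays titled forelimb E13.5 and the 5 titled forelimb E12.5, all from FVB embryos, with no treatment, transgene or other allele named in the labels. Each sample is the total RNA of the whole forelimb bud, cut away from 1 embryo and labelled in a 2-cycle amplification for an Affymetrix whole-genome mouse array. The embryos of a stage came from 1 litter, so stage and litter cannot be told apart. The p-values measure the spread between littermates on their arrays, pooled over all 14 groups of tissue and stage. The hindlimb buds of the same stages (5 arrays each, also FVB) served as the comparison for changes that differ between limbs. The paper describes hindlimb development as lagging behind that of the forelimb, so equal days need not be equal developmental stages.

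Between these stages digits take shape in the paddle-shaped autopod. Mesenchymal cells that carried positional information in their Hox and other homeobox genes condense into cartilage, tendon primordia link the condensations to growing muscle, and the apical ectodermal ridge, the signalling epithelium at the rim, regresses. Stratified epidermis starts to form over the bud, and red cells of yolk sac origin in its vessels are replaced by others from the fetal liver.

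Of 18194 genes measured, 258 were up-regulated in E13.5 forelimb (1.42%) and 235 were down-regulated (1.29%), at a fold change of 2 or greater and a limma adjusted p under 0.001. All values below are log2 intensities, each gene being the mean of its probe sets, so that a log2 fold change of 1 is a doubling, and each fold change carries its standard error. The 5 E13.5 arrays did not overlap with the 5 E12.5 arrays in 258 of the 258 up-regulated genes and in 234 of the 235 down-regulated genes, while over all genes 41.9% did not overlap, 13.8% lying above at E13.5 and 28.1% below. The up-regulated genes reached a change of 4.22 and the down-regulated genes reached −2.87, around a median of −0.04 over all genes. Up-regulated genes made up 52.3% of the calls. That share was 71.3% after quantile normalization between arrays (343 up-regulated and 138 down-regulated genes) and 66.1% after centring each array on its median (310 and 159), so the balance of the directions depended on the scaling. The median over genes was 5.97 to 6.02 on the E13.5 arrays, against 6.05 to 6.09 on the E12.5 arrays, and the interquartile range over genes was 3.50 to 3.65 at E13.5, against 3.79 to 3.86 at E12.5 (exact permutation p = 0.00794 for each, two-sided, the smallest that 5 against 5 can give). Beyond these 2 scalings, the part of these array properties in the calls was not tested.

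Marker genes fitted the forelimb titles. Tbx5, the forelimb T-box gene, stood at 8.31 to 8.82 at E13.5 and 9.67 to 9.77 at E12.5, while the hindlimb arrays of both stages lay between 5.66 and 6.27. The hindlimb gene Pitx1 was at 4.84 to 5.37 on the E13.5 and 5.02 to 5.60 on the E12.5 forelimb arrays. Source name and characteristics call the array titled forelimb E12.5 replicate 5 a hindlimb. Its Tbx5 of 9.77, Pitx1 of 5.52 and Hoxc10 of 4.40 lay at forelimb levels, so the title was kept, and without it 270 genes were up-regulated and 257 down-regulated. The same labels call the array titled hindlimb E11.5 replicate 5 an E12.5 forelimb. Its Tbx5 of 5.75 and Pitx1 of 10.65 lay at hindlimb levels, and its title was kept too. Actb, whose 3′ probe set minus its 5′ one measures RNA length after amplification, gave 0.36 to 0.42 at E13.5 and 0.20 to 0.23 at E12.5, without overlap. The same measure for Gapdh was −0.06 to 0.03 at E13.5 and −0.06 to 0.01 at E12.5. Of the transcripts spiked in as controls, Cre lay at 13.58 to 13.84 at E13.5 and 13.19 to 13.58 at E12.5, and Dap at 3.20 to 3.28 at E13.5 and 3.09 to 3.63 at E12.5. The part of these measures in the results was not tested.

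**Figure D1:**
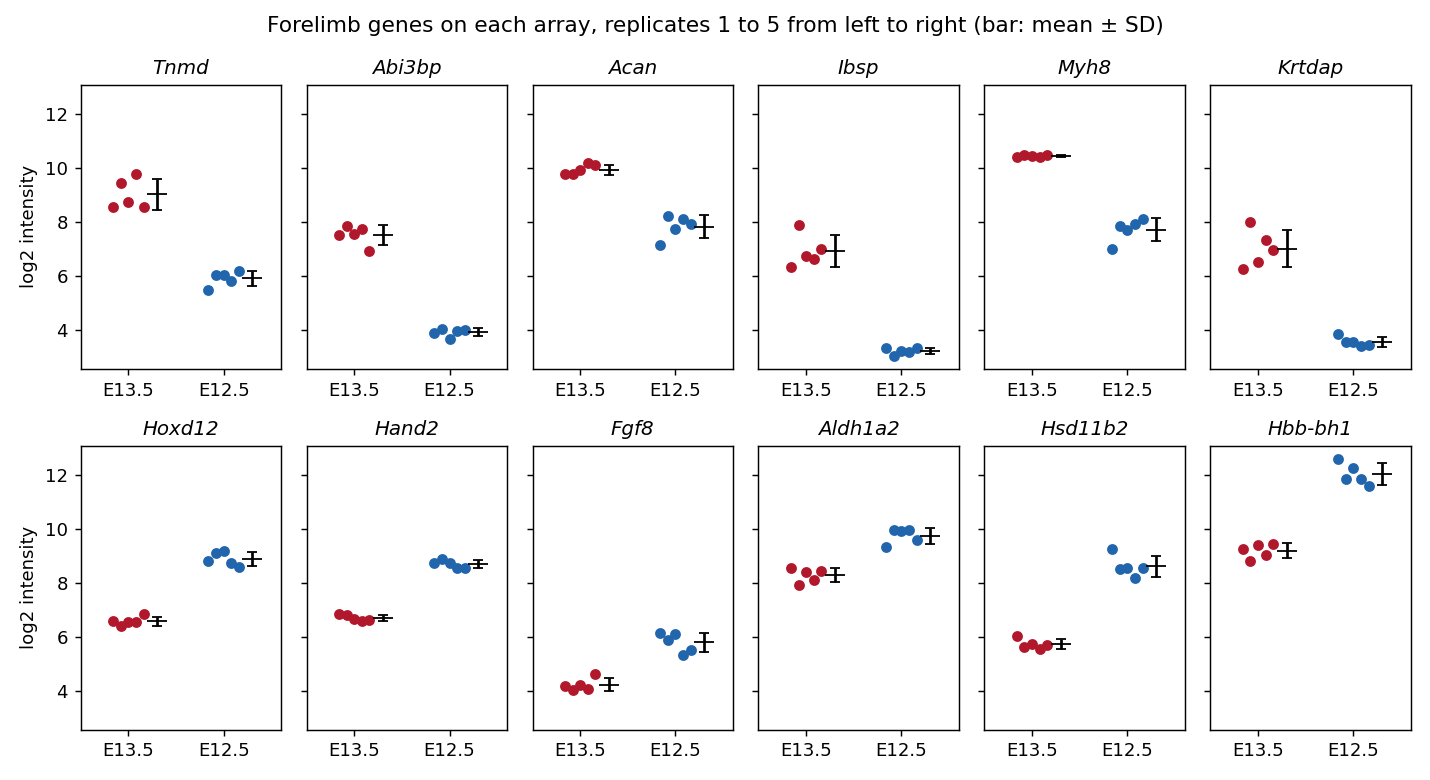
Log2 intensity (y axis) of 12 forelimb genes on each of the 5 E13.5 arrays (red) and the 5 E12.5 arrays (blue), with replicates 1 to 5 from left to right and black bars for the mean ± SD. In the upper row every E13.5 array lies above every E12.5 array, and in the lower row every E13.5 array lies below.

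Tendon and fibrous connective tissue genes held many of the largest increases. Of 24 measured tendon and ligament genes 11 were up-regulated and none was down-regulated, with a median change of 0.97. Of these, Col1a1, Col1a2, Col5a2, Dcn, Bgn and Tnc are also counted with the fibrous matrix genes below, and Comp with the cartilage genes. Tnmd, a membrane protein of tendon cells, stood at 8.56, 9.46, 8.74, 9.79 and 8.56 on the E13.5 arrays, against 5.49, 6.06, 6.05, 5.81 and 6.18 on the E12.5 arrays. The lowest E13.5 array thus lay above every E12.5 array, and Tnmd rose 8.61-fold (3.11 ± 0.22, limma adjusted p = 1.84e-15). Comp, the cartilage oligomeric matrix protein that tendon also makes, had 8.49 to 9.11 at E13.5, against 4.89 to 6.92 at E12.5 (7.06-fold). Its relatives Thbs4 and Thbs2, thrombospondins of the tendon matrix, rose 6.52-fold and 4.98-fold. Egr1, a transcription factor induced by load in tendon cells, rose 2.91-fold (9.00 to 9.34 at E13.5, against 7.28 to 7.93 at E12.5). Its mean was 8.07 in E9.5 forelimb, above the E12.5 mean of 7.66, so its course was not particular to tendon. Scx, the transcription factor that marks tendon progenitors, was not up-regulated: it lay at 4.99 to 5.28 at E13.5, against 5.50 to 5.72 at E12.5, and its probe sets differed (−1.05 and 0.12), the first of which would pass as down-regulated by itself. In bulk tissue, a larger number of cells of a type and more RNA per cell cannot be told apart, here and in every list below.

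Of 57 fibrous matrix and basement membrane genes 16 were up-regulated and none was down-regulated (median 0.56). Aspn, asporin, a small leucine-rich protein bound to collagen, had 9.28, 9.64, 9.49, 9.54 and 9.34 at E13.5, against 5.15, 6.49, 6.13, 6.83 and 6.91 at E12.5. The E13.5 arrays lay close together while the E12.5 arrays spread over more than 1 log2 unit, and the fold change was 8.92 (3.16 ± 0.23, limma adjusted p = 3.39e-15). Dpt, dermatopontin, had 6.70 to 8.01 at E13.5, against 3.81 to 4.92 at E12.5 (7.34-fold). Postn, periostin, was among the brightest genes of the group, with a mean of 12.65 ± 0.10 at E13.5, against 10.41 ± 0.30 at E12.5 (SD, n = 5 each, 4.73-fold). The 3 chains of collagen VI rose together, Col6a3 by 4.33-fold, Col6a1 by 3.59-fold and Col6a2 by 2.81-fold. Both chains of collagen I, the main collagen of tendon, bone and skin, rose as well. Col1a1 rose 3.12-fold and Col1a2 2.70-fold, although the Col1a2 probe set of highest mean changed by only 0.71 and missed the threshold. The same held for Fn1, fibronectin (1.38 over the gene, 0.64 for that probe set), and Tnc, tenascin C (1.63 and 0.94). Eln, elastin, rose 2.37-fold. The small proteoglycans Dcn and Ogn rose 2.61-fold and 2.69-fold, and Mfap5, a microfibril protein, 2.50-fold. Bgn, biglycan, and Col5a2, a chain of the collagen V that nucleates fibrils, changed by 1.04 and 1.01, and both lost the call without E12.5 replicate 1 (0.99 and 0.98).

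The highest gene of the matrix group by fold was outside that list. Abi3bp, a secreted matrix protein, had 7.52, 7.86, 7.57, 7.75 and 6.93 at E13.5, against 3.91, 4.03, 3.67, 3.97 and 4.02 at E12.5. Its E12.5 values lay in the dim range of the arrays, and the fold change was 12.2 (3.61 ± 0.12, limma adjusted p = 1.59e-25). C1qtnf3, a secreted C1q-related protein of developing cartilage, had 9.39 to 9.87 at E13.5, against 5.66 to 7.79 at E12.5 (8.85-fold). Abca8a, a lipid transporter of the ABC family, stood at 6.48 to 7.92 at E13.5, against 3.75 to 4.17 at E12.5 (11.3-fold). Ecrg4, which encodes the secreted peptide augurin, rose 7.45-fold on average over 3 probe sets, whose changes ran from 0.88 to 4.63. Also among the 15 largest increases were Tceal7 (8.83-fold), Hypk (7.03-fold) and a locus listed as LOC102631979 (9.90-fold), each measured by 1 probe set.

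**Figure D2:**
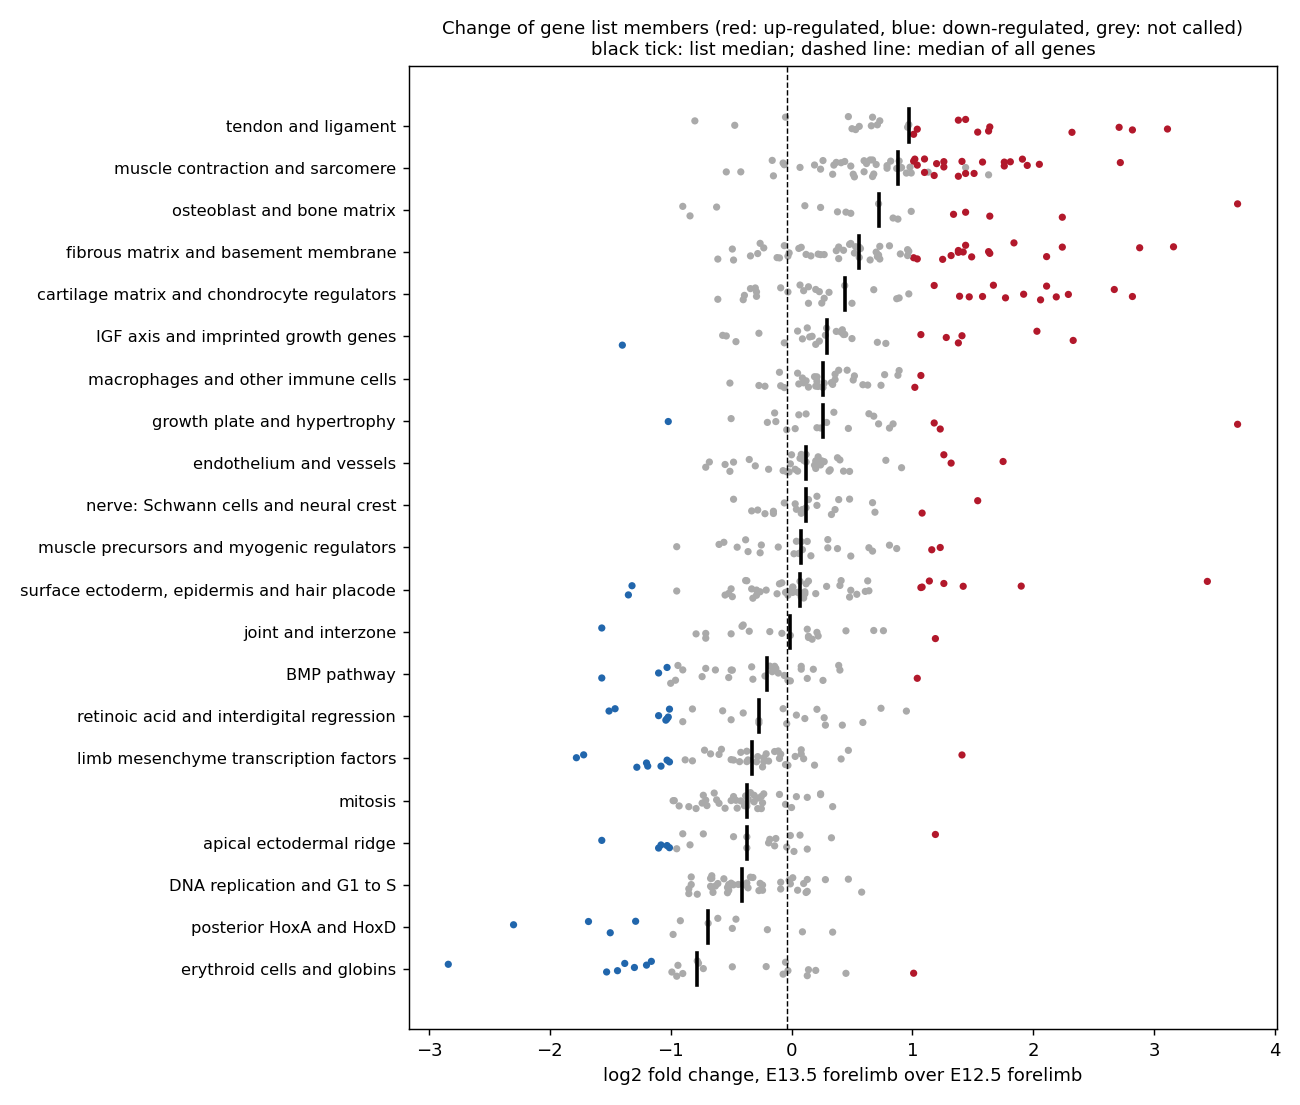
Log2 fold change of E13.5 over E12.5 forelimb (x axis) for every measured member of 21 gene lists (rows, ordered by median). Points are genes, red where up-regulated, blue where down-regulated and grey where not called; black ticks give the list medians, from 0.97 for tendon to −0.78 for erythroid genes, and the dashed line the median of all genes at −0.04.

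Cartilage matrix genes rose. Of 37 cartilage genes 13 were up-regulated and none was down-regulated (median 0.44), and the 13 encode matrix proteins or proteins at the chondrocyte surface. Acan, aggrecan, the large proteoglycan that holds water in cartilage, stood at 9.76, 9.76, 9.91, 10.17 and 10.09 at E13.5, against 7.14, 8.24, 7.74, 8.11 and 7.94 at E12.5. The groups did not overlap, and replicate 1 was the lowest of the E12.5 arrays. Acan rose 4.30-fold (2.11 ± 0.22, limma adjusted p = 1.51e-10), and Hapln1, the link protein that ties aggrecan to hyaluronan, rose 4.17-fold. The matrilins, which bridge collagen and proteoglycans, rose 6.37-fold (Matn2), 4.56-fold (Matn3) and 3.19-fold (Matn1). Epyc, epiphycan, rose 4.91-fold and Snorc, a chondrocyte membrane proteoglycan, 3.77-fold. Of the fibrillar collagens of cartilage, Col11a1 rose 3.41-fold and Col11a2 2.61-fold. Col2a1, the main one, was already bright, with 12.90 to 13.18 at E13.5, against 11.49 to 12.08 at E12.5 (2.26-fold). Cnmd, chondromodulin, which keeps vessels out of cartilage, rose 3.00-fold and Susd5 2.78-fold. Sox9, the transcription factor at the head of the chondrocyte program, had 7.29 to 7.62 at E13.5, against 7.67 to 7.85 at E12.5, a change of −0.29 ± 0.10 that did not reach the threshold (limma adjusted p = 0.0118).

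Of the genes of later skeletal stages, Ibsp had the largest change. Ibsp, bone sialoprotein, made by osteoblasts and late hypertrophic chondrocytes, had 6.33, 7.89, 6.76, 6.62 and 7.02 at E13.5, against 3.36, 3.05, 3.25, 3.19 and 3.34 at E12.5. Every E12.5 array was near the floor of the arrays and replicate 2 was the highest at E13.5. Ibsp rose 12.9-fold (3.69 ± 0.22, limma adjusted p = 1.61e-17), with changes of 4.84 and 2.54 for its probe sets. Panx3, a channel protein of prehypertrophic chondrocytes and osteoblasts, rose 2.27-fold as the mean of 3 probe sets. Of these the brightest changed by 3.11 (7.77 at E13.5, against 4.67 at E12.5), while the other two lay near the floor (0.32 and 0.12). Ifitm5, an osteoblast membrane protein, rose 2.53-fold. Mef2c, a transcription factor of hypertrophy and of muscle, rose 2.35-fold (10.47 to 10.61 at E13.5, against 8.96 to 9.49 at E12.5). The signal and the collagen that define the hypertrophic zone were not called. Ihh had 5.78 to 6.20 at E13.5, overlapping with 5.31 to 6.09 at E12.5, and Col10a1 had 4.34 to 5.82 at E13.5, overlapping with 4.01 to 4.62 at E12.5. Sp7, the osteoblast transcription factor, and Alpl, alkaline phosphatase, did not overlap but stayed below a doubling (0.72 ± 0.12 and 0.84 ± 0.16). In all, 5 of 17 osteoblast and bone matrix genes were up-regulated (median 0.72), of which Col1a1, Col1a2 and Postn are also fibrous matrix genes, and 3 of 22 growth plate genes (median 0.26). Of the growth plate genes 1 was down-regulated, Snai1, a transcriptional repressor (−1.02), which lost the call in 7 of the 10 fits that left out 1 array. Of 21 joint and interzone genes 1 was up-regulated, Cd44, the hyaluronan receptor (2.28-fold), and 1 down-regulated, Nog (median −0.01). The shares over all genes were 1.42% and 1.29%. Gdf5, the growth factor of the joint interzone, had 8.50 to 8.89 at E13.5, against 9.08 to 9.70 at E12.5 (−0.71 ± 0.18, limma adjusted p = 0.000999, short of a doubling).

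Contractile genes made up the largest list by number of calls. Of 60 measured muscle contraction and sarcomere genes 21 were up-regulated and none was down-regulated (median 0.88). Myh8, the perinatal myosin heavy chain, stood at 10.40, 10.46, 10.44, 10.40 and 10.46 at E13.5, against 6.99, 7.84, 7.71, 7.91 and 8.11 at E12.5. Its E13.5 arrays were nearly equal and all lay above the E12.5 arrays (6.58-fold, 2.72 ± 0.21, limma adjusted p = 2.09e-14). Acta1, skeletal α-actin, had 12.46 to 12.68 at E13.5, against 10.13 to 10.91 at E12.5 (3.76-fold). Mylpf, the fast myosin regulatory light chain, had 12.43 to 12.77 at E13.5, against 10.87 to 11.46 at E12.5 (2.60-fold). Proteins of the sarcomere's scaffold rose too: Neb, nebulin, 4.13-fold, Ttn, titin, 3.50-fold, and Myom1, myomesin, 3.38-fold. Myh7, the slow myosin heavy chain, rose 3.87-fold. The fast troponins Tnnt3 and Tnni2 rose 3.38-fold and 2.66-fold, the calcium release channel Ryr1 2.99-fold, and Chrnb1, a subunit of the acetylcholine receptor at the nerve contact, 2.39-fold. Ldb3, of the Z disc, rose 2.86-fold and Myom2, of the M band, 2.72-fold. The other 8 were Actn2, Myoz2 and Lmod2 of the sarcomere (1.26, 1.18 and 1.20), Myh1, a fast myosin (1.10), Tnnt2, the cardiac troponin T (1.01), and the calcium store proteins Srl, Casq1 and Atp2a1 (1.10, 1.04 and 1.02). Actn2, Myh1, Tnnt2 and Atp2a1 lost the call without E12.5 replicate 1, and leaving out single arrays gave 17 to 23 calls in the list. Ckm, muscle creatine kinase, averaged 5.73 ± 0.20 at E13.5 and 5.05 ± 0.20 at E12.5 (SD, n = 5 each), a difference of 0.68 that was short of a doubling. Of 12 heart genes 2 were up-regulated (median 0.17), Myl3, a slow and ventricular myosin light chain (1.15), and Sln, sarcolipin (1.02). Sln lost the call without E12.5 replicate 1 or E13.5 replicate 5 (0.89 and 0.99), and Myl3 with the probe set of highest mean. The brighter Sln probe set changed by 1.80 and the dim one by 0.25. Of 27 oxidative phosphorylation genes 1 was up-regulated, Cox6a2, the muscle form of a cytochrome oxidase subunit (1.28, median −0.14). The share of up-regulated genes over all genes was 1.42%. The gene of largest change in the whole comparison was also a muscle gene. Atp1b4, a relative of the sodium pump's β subunit that sits in the nuclear envelope of muscle, had 7.54, 8.38, 8.12, 8.12 and 7.59 at E13.5, against 3.41, 3.80, 3.57, 4.12 and 3.76 at E12.5. It was dim on every E12.5 array and rose 18.6-fold (4.22 ± 0.15, limma adjusted p = 2.56e-25).

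Most regulators of the muscle lineage were not called. Myod1, the myoblast determination factor, had 5.84 to 6.17 at E13.5, overlapping with 5.88 to 6.15 at E12.5. Myog, myogenin, which starts myoblast differentiation, had 11.19 to 11.40 at E13.5, against 10.55 to 10.85 at E12.5, without overlap. Its change of 0.64 ± 0.42 was short of a doubling and was not called (limma adjusted p = 0.216). That standard error pools the spread of all 14 groups, while the SD of Myog was 0.08 at E13.5 and 0.12 at E12.5. Myf6, the latest of the family, rose 2.23-fold from a dim level (4.62 to 5.39 at E13.5, against 3.69 to 4.04 at E12.5). Of 26 genes of muscle precursors and myogenic regulators, Myf6 and Mef2c were up-regulated and none was down-regulated (median 0.08). Over all genes 1.42% were up-regulated.

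The promoters of Myh8, Acta1 and Mylpf are shown because these genes rose together and reach high levels. Each run holds 250 bases before and 50 after the RefSeq start on GRCm38.p6. Capitals mark the muscle E-box letters CAGCTG and the TATA box letters TATAAA, searched on both strands, where the reverse complement of the second reads TTTATA. Myh8 lies on chr11:67276874-67277173 (plus strand), Acta1 on chr8:123894726-123895025 (minus strand) and Mylpf on chr7:127211358-127211657 (plus strand).
Myh8: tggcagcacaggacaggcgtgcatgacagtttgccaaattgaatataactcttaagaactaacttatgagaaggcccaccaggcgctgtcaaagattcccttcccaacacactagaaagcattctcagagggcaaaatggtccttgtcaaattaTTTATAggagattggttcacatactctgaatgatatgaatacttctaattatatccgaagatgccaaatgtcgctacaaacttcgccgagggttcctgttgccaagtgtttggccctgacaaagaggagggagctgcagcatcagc
Acta1: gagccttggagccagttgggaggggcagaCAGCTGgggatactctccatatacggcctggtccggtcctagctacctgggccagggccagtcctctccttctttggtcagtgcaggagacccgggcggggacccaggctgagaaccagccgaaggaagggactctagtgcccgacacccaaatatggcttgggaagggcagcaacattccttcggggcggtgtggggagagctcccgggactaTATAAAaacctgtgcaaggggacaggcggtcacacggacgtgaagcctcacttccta
Mylpf: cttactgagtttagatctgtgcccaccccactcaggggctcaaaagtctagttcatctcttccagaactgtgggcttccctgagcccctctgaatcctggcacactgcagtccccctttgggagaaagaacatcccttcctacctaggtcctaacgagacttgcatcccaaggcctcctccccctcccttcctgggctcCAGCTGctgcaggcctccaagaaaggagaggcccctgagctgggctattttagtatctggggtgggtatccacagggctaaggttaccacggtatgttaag
Of the 21 up-regulated contractile genes 16 had a window in the RefSeq table, 19 windows in all. CAGCTG was found in 7 of these 19 windows (36.8%), against 16.3% of all 32851 windows, and TATAAA in 4 of them (21.1%), against 13.6% of all. These are matches of letters and not sites shown to be bound.

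The surface of the limb showed increases in suprabasal genes and decreases in 2 tight junction genes. Krtdap, a protein of differentiating keratinocytes, stood at 6.27, 7.99, 6.51, 7.33 and 6.95 at E13.5, against 3.85, 3.56, 3.55, 3.42 and 3.44 at E12.5. Replicates 2 and 4 were the highest at E13.5, and Krtdap rose 10.9-fold (3.44 ± 0.25, limma adjusted p = 6.96e-15). Krt1, a keratin of suprabasal cells, had 7.04, 8.49, 6.92, 8.04 and 7.17 at E13.5, again highest in replicates 2 and 4, against 5.31 to 5.78 at E12.5 (3.73-fold). Klf4, a transcription factor of the epidermal barrier, rose 2.68-fold and Krt4 2.40-fold. The suprabasal keratin Krt10 and the desmosome genes Perp and Pkp1 changed by 1.14, 1.07 and 1.08, and all lost the call without E13.5 replicate 2 (0.94, 0.95 and 0.99). The basal keratins did not follow. Krt5 had 9.95 to 10.38 at E13.5, overlapping with 9.67 to 10.02 at E12.5, and Krt14 had 7.59 to 8.06 at E13.5, overlapping with 7.69 to 8.12 at E12.5. The tight junction genes Cldn6 and Cldn7 fell by 1.32 ± 0.29 and by 1.35 ± 0.16. In all, 7 of 51 surface ectoderm and epidermis genes were up-regulated and 2 down-regulated (median 0.07), and leaving out single arrays gave 4 to 7 up-regulated ones.

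Genes that pattern the limb bud fell. Of 13 posterior HoxA and HoxD genes 4 were down-regulated and none was up-regulated (median −0.69), and these were distal genes of both clusters. Hoxd12 stood at 6.59, 6.39, 6.55, 6.55 and 6.84 at E13.5, against 8.79, 9.10, 9.19, 8.73 and 8.60 at E12.5. The groups were far apart, and Hoxd12 fell by 2.30 ± 0.19, a 4.94-fold decrease (limma adjusted p = 2.41e-13). Hoxa13, which with Hoxd13 is needed to form the autopod, had 6.50 to 6.70 at E13.5, against 8.05 to 8.65 at E12.5 (3.20-fold lower). Hoxd11, of the zeugopod, was 2.83-fold lower, and Hoxa11 lay just short of the threshold (−0.98 ± 0.11). Hoxd13 was still bright, with 9.70 to 9.86 at E13.5, against 10.79 to 11.31 at E12.5 (2.45-fold lower), and its probe set of highest mean changed by −0.89, short of a doubling.

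Of 42 transcription factor genes of limb mesenchyme 8 were down-regulated and 1 was up-regulated (median −0.33). Hand2, which sets up the posterior signalling centre of the early bud, stood at 6.84, 6.80, 6.65, 6.59 and 6.62 at E13.5, against 8.73, 8.89, 8.74, 8.56 and 8.54 at E12.5. No arrays overlapped and Hand2, listed here with the hedgehog pathway, fell by 1.99 ± 0.11 (limma adjusted p = 4.78e-18). The LIM homeobox genes Lhx9 and Lhx2, which relay signals between ridge and mesenchyme, were 3.44-fold and 3.30-fold lower. Prrx2, a homeobox gene of limb mesenchyme, was 2.43-fold lower, Shox2, a homeobox gene needed for the upper arm, 2.30-fold and Msx1, a homeobox gene of the distal bud, 2.11-fold. Msx1 lost the call after quantile normalization (−0.91). Msx2, its relative, and Pax9, a paired box gene, changed by −1.01 and −1.03, and both lost the call after either scaling (−0.93 and −0.95 after centring). The brighter Msx2 probe set changed by −1.84 (7.40 at E13.5, against 9.23 at E12.5), while the other lay near the floor (−0.18). The up-regulated gene was Plagl1, an imprinted zinc finger gene (2.65-fold), whose probe set of highest mean missed the threshold (0.61). Of 24 anterior, HoxB and HoxC genes 1 was down-regulated, Hoxc5 (2.34-fold), which also missed it with that probe set (−0.89). The share of down-regulated genes over all genes was 1.29%. Lmx1b, the LIM homeobox gene of the dorsal limb, had 5.96 to 6.24 at E13.5, against 6.31 to 6.53 at E12.5, and was not called (−0.37 ± 0.11). Tbx5 was 2.28-fold lower on average, but its 2 probe sets gave −2.01 and −0.36, and the brighter one did not pass.

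Of 23 ridge genes 5 were down-regulated and 1 was up-regulated (median −0.37) and leaving out single arrays gave 3 to 6 down-regulated ones. The down-regulated genes were Fgf8, Bmp4, Bmp7, Msx1 and Msx2, and the up-regulated one was Cd44. Bmp4, Bmp7, Msx1 and Msx2 are also counted in the mesenchyme, BMP or interdigital lists, and Cd44 with the joint genes. Fgf8, the ridge's growth factor, had 4.20, 4.04, 4.23, 4.07 and 4.62 at E13.5, against 6.13, 5.88, 6.12, 5.35 and 5.53 at E12.5. All E13.5 arrays were in the dim range and below the E12.5 arrays (2.97-fold lower, −1.57 ± 0.23, limma adjusted p = 1.67e-07). Shh, the signal of the posterior bud, was at 4.42 to 4.70 at E13.5, overlapping with 4.35 to 4.69 at E12.5, so no change was detectable at these dim levels. Nog, which binds and blocks BMPs, had 5.96 to 6.59 at E13.5, against 7.31 to 8.13 at E12.5 (2.97-fold lower). Bmp4, one of its ligands, was 2.14-fold lower and lost the call after quantile normalization (−0.96). Of 32 BMP pathway genes 3 were down-regulated, Nog, Bmp4 and Bmp7, and 1 was up-regulated, Gdf10, a TGFβ family ligand (1.04, median −0.20). Of 32 FGF pathway genes 1 was down-regulated, Fgf8, and 1 up-regulated, Fgfbp1, which releases FGFs from matrix (2.73-fold, median −0.02). Of 56 WNT pathway genes 1 was down-regulated, the WNT antagonist Frzb (−1.02, −0.94 after centring), and of 17 hedgehog genes 1, Hand2. None of 21 Notch genes was called, the largest change being that of the ligand Dll3 (−0.92). Of 22 TGFβ and activin genes 2 were up-regulated, the TGFβ-binding matrix proteins Ltbp2 and Ltbp3 (2.81-fold and 2.09-fold), and 1 was down-regulated, the repressor Tgif1 (−1.08, −0.94 after quantile normalization). Over all genes 1.42% were up-regulated and 1.29% down-regulated, so 1 call in a list was not read as a change of the pathway.

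Of 25 genes of retinoic acid and interdigital regression 7 were down-regulated and none was up-regulated (median −0.27), with 4 to 7 when single arrays were left out. Aldh1a2, the enzyme that makes retinoic acid, stood at 8.53, 7.93, 8.41, 8.09 and 8.45 at E13.5, against 9.31, 9.95, 9.90, 9.96 and 9.57 at E12.5. The arrays did not overlap, and Aldh1a2 fell by 1.46 ± 0.29 (limma adjusted p = 4.38e-05). Stra6, the receptor that takes up retinol, was 2.85-fold lower. The other 5 of the 7 were Cyp26b1 (−1.02), Crabp2 (−1.04), Bmp4, Bmp7 (−1.03) and Msx2 (−1.01), all close to the threshold as gene means. All 5 fell below it after quantile normalization (−0.96 to −0.85), and Bmp4, Bmp7 and Msx2 also count among the ridge genes.

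The largest decreases of all included genes outside these lists. Hsd11b2, which inactivates glucocorticoids, had 6.02, 5.63, 5.74, 5.57 and 5.71 at E13.5, against 9.26, 8.52, 8.55, 8.18 and 8.53 at E12.5. It was the gene of largest decrease, 7.32-fold (−2.87 ± 0.19, limma adjusted p = 7.55e-16), with replicate 1 highest in both groups. Car14, a membrane carbonic anhydrase, was 3.92-fold lower, and Mab21l1, a mesenchymal gene of the mab-21 family, 3.74-fold. Pmaip1, which encodes the pro-apoptotic protein Noxa, was 3.94-fold lower (6.39 to 6.65 at E13.5, against 8.22 to 8.92 at E12.5). Cbln1, a cerebellin, was 4.39-fold lower, with changes from −3.16 to −0.79 over 3 probe sets. Zic5, a zinc finger transcription factor, was 3.25-fold lower, as was Nap1l2, and 2610318N02Rik was 3.55-fold lower. Ttr, transthyretin, a carrier protein of liver and choroid plexus, was 3.42-fold lower on average, but its E12.5 arrays ran from 4.70 to 6.69 and its probe set of highest mean missed the threshold (−0.50). Of the liver genes, Alb lay at 3.82 to 4.86 at E13.5 and 3.58 to 4.39 at E12.5, near the floor. Afp lay at 3.42 to 4.14 at E13.5, while at E12.5 it was 6.22 in replicate 4 and 3.45 to 4.11 in the other arrays. The same array was the highest in Apoa1 (5.93) and in Ttr (6.69), and the part of liver RNA in the decrease of Ttr was not tested.

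**Figure D3:**
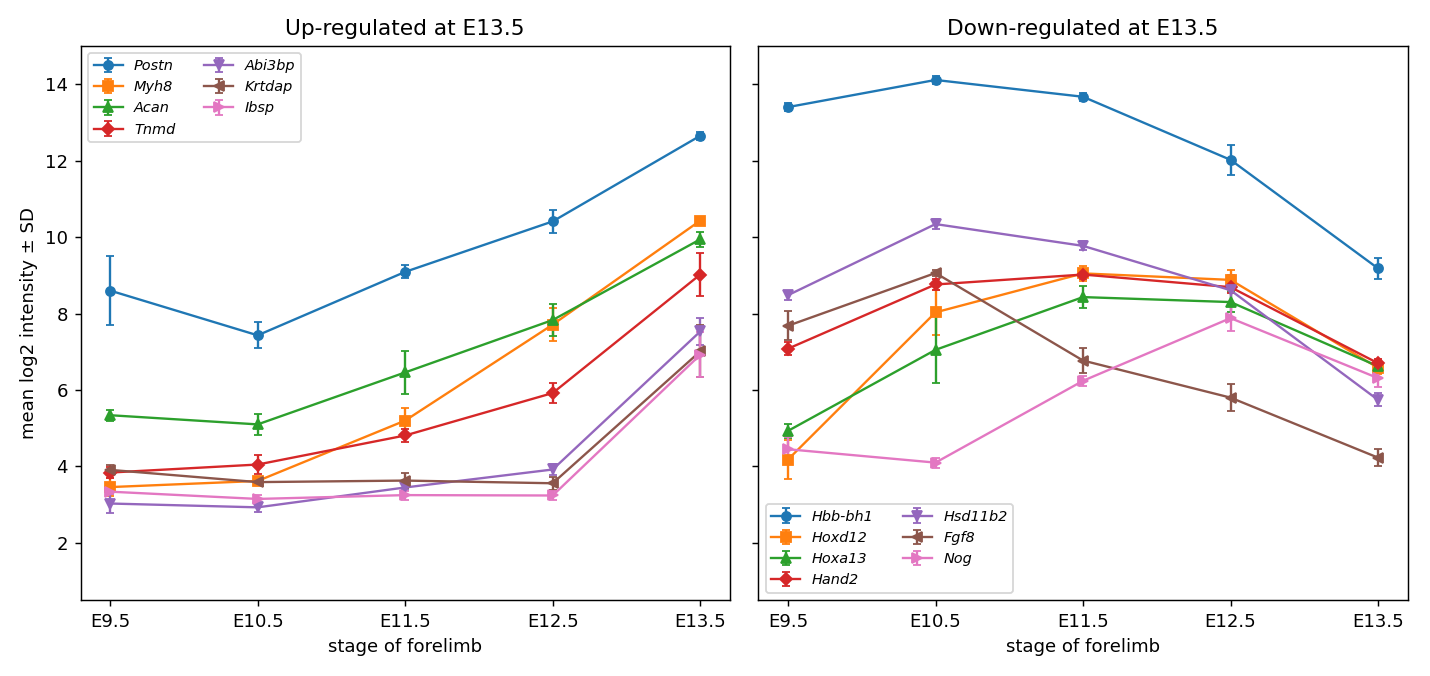
Mean log2 intensity ± SD (y axis) of forelimb genes at each stage (x axis, 3 to 5 arrays a stage), with 7 genes up-regulated at E13.5 on the left and 7 down-regulated on the right. Krtdap and Ibsp lay flat from E9.5 to E12.5 and were higher only at E13.5, while Myh8 and Acan were already higher at E12.5 than at E10.5, and Hbb-bh1 and Fgf8 had their highest means at E10.5.

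Set against the earlier stages, the changes differed in when they began. Mean Myh8 was 3.46, 3.62, 5.20, 7.71 and 10.43 from E9.5 to E13.5, and mean Acan was 5.34, 5.10, 6.46, 7.83 and 9.94. Krtdap was flat, at 3.91, 3.59, 3.63 and 3.56, up to E12.5 and stood at 7.01 at E13.5. Abca8a, Atp1b4 and Ibsp likewise stayed low up to E12.5, with highest stage means of 3.90, 3.73 and 3.34. Fgf8 had its highest mean, 9.06, at E10.5 and lay at 6.77, 5.80 and 4.23 at the following stages. Nog had its highest mean at E12.5, with 4.10, 6.24, 7.88 and 6.31 on the stages E10.5, E11.5, E12.5 and E13.5. In the fit, 109 genes were up-regulated (0.599%) and 30 down-regulated (0.165%) in E12.5 forelimb against E11.5 forelimb, 0.764% of genes together.

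Embryonic globins and other red cell genes fell. Of 24 erythroid genes 7 were down-regulated and 1 was up-regulated (median −0.78), with 7 to 11 down-regulated ones when single arrays were left out. Hbb-bh1, an embryonic β-like globin, stood at 9.26, 8.80, 9.41, 9.02 and 9.43 at E13.5, against 12.59, 11.85, 12.24, 11.83 and 11.59 at E12.5. The gap between the groups exceeded the range of either, and Hbb-bh1 was 7.14-fold lower (−2.84 ± 0.14, limma adjusted p = 7.63e-20). Hba-x, the embryonic α-like globin ζ, had 11.44 to 12.04 at E13.5, against 13.05 to 13.52 at E12.5 (2.61-fold lower). The membrane proteins Slc4a1, band 3, and Rhag were 2.88-fold and 2.47-fold lower. Trim10, needed for the terminal steps of red cell formation, was 2.71-fold lower, Car2, carbonic anhydrase 2, 2.30-fold and Bpgm, which makes the red cell's bisphosphoglycerate, 2.24-fold. The adult β-globin gene Hbb-b2 moved the other way, with 6.27 to 6.67 at E13.5, against 5.32 to 5.57 at E12.5. Its 2.02-fold increase was at the threshold and lost the call without E12.5 replicate 2 or E13.5 replicate 2, 4 or 5 (0.96 to 1.00). The single probe set assigned to Hba-a1 lay at 3.46 to 3.77 at E13.5 and 3.18 to 3.76 at E12.5, at the floor.

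Among vessel, nerve and immune genes the calls were few in number, while over all genes 1.42% were up-regulated and 1.29% down-regulated. Pecam1, a marker of endothelium, had 8.55 to 8.89 at E13.5, overlapping with 8.65 to 8.85 at E12.5, and 3 of 41 endothelium and vessel genes were up-regulated (median 0.12). These were Abcc9 and Cspg4, genes of pericytes (3.37-fold and 2.39-fold), and Lyve1, a receptor of lymphatic vessels and some macrophages (2.50-fold). Csf1r, the macrophage growth factor receptor, had 8.27 to 8.46 at E13.5, against 7.50 to 7.77 at E12.5, an increase of 0.74 ± 0.09 short of a doubling. Of 35 macrophage and other immune genes 2 were up-regulated, the mannose receptor Mrc1 (1.07) and the transglutaminase F13a1 (1.02), both of which lost the call without E12.5 replicate 1 (1.00 and 0.95, the first just short of a doubling before rounding), and leaving out single arrays gave 0 to 2. The mast cell proteases Cpa3 and Cma1, which were picked after their values had been seen, rose 3.12-fold and 2.82-fold. Among Schwann cell and neural crest genes, S100b and Pmp22 rose 2.90-fold and 2.12-fold (2 of 23, median 0.12). The axon guidance receptors Nrp1, for semaphorins and VEGF, and Robo2, for Slit proteins, rose 2.72-fold and 2.65-fold. They were the 2 calls among 39 neurotrophin, axon guidance and ephrin genes, whose median was −0.21, with 17 lower and 8 higher at a limma adjusted p under 0.05. Tubb3, the neuronal β-tubulin, was 2.41-fold lower, and it missed the threshold without E12.5 replicate 1 (limma adjusted p = 0.00122). It was the 1 call among 33 neuron and neural progenitor genes, of which 17 had a negative and 16 a positive change (median −0.01).

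Imprinted RNAs of 1 locus rose together. Meg3, a noncoding RNA made from the maternal copy of the Dlk1 and Meg3 region, stood at 9.73, 9.55, 9.68, 9.72 and 9.68 at E13.5, against 7.25, 7.32, 7.12, 7.66 and 7.35 at E12.5. No arrays overlapped, and Meg3 rose 5.04-fold (2.33 ± 0.09, limma adjusted p = 9.77e-24), with all 11 probe sets between 0.86 and 3.54. Its neighbour Rian rose 4.08-fold. Mirg, of the same region and picked after its value had been seen, rose 4.69-fold. Dlk1, made from the paternal copy and encoding a membrane protein, rose 2.10-fold. Malat1 and Kcnq1ot1, 2 other long noncoding RNAs picked in the same way, rose 3.16-fold and 2.87-fold, Kcnq1ot1 with probe sets from 0.22 to 2.70. Igf1, the growth factor, had 10.49 to 10.66 at E13.5, against 8.91 to 9.70 at E12.5 (2.42-fold). Nnat, an imprinted membrane protein, was 2.64-fold lower. In all, 6 of 29 genes of the IGF axis and imprinted growth genes were up-regulated and 1 was down-regulated (median 0.29). Of 36 proteases and inhibitors 2 were up-regulated, the protease Htra1 (3.23-fold) and Adamtsl3 (2.25-fold). The glucose transporter Slc2a3 was 2.29-fold lower, the 1 call of 26 glycolysis and hypoxia genes, and its probe set of highest mean changed by −0.36. The shares over all genes were 1.42% up-regulated and 1.29% down-regulated.

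Cell division genes moved a little downward and none was called. Of 41 mitosis genes 31 were lower at a limma adjusted p under 0.05 with no fold threshold and 2 were higher (median −0.37), and of 44 DNA replication genes 30 were lower and 2 higher (median −0.41). Over all 18194 genes 5618 were lower and 3289 higher by that rule (median −0.04). After quantile normalization the list medians were −0.26 and −0.30, against −0.01 over all genes. The largest changes were those of Ube2c, a mitotic ubiquitin enzyme (−0.98), and Gins1, of the replication helicase (−0.85). In further lists without a call the largest changes were those of Klf2 among cell cycle inhibitors and quiescence genes (0.83), Rpl41 among ribosomal proteins (0.82), Trim71 among early RNA-binding genes (−0.88) and Ctsk among apoptosis and lysosome genes (0.76). The 2 brightest Rpl41 probe sets changed by −0.02 and −0.10, and the dimmer ones by 2.05 and 1.34. Mki67, the proliferation antigen, had 11.83 to 12.02 at E13.5, overlapping with 11.76 to 11.92 at E12.5.

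Littermates did not sit at equal distance from the other stage. E12.5 replicate 1 was the lowest of its 5 arrays in 157 of the 258 up-regulated genes (60.9%) and the highest in 100 of the 235 down-regulated genes (42.6%). E12.5 replicate 4 was the highest in 117 of the up-regulated genes (45.3%) and the lowest in 92 of the down-regulated ones (39.1%). Among E13.5 arrays, replicate 2 was the highest in 89 of the up-regulated genes (34.5%) and replicate 5 the highest in 113 of the down-regulated ones (48.1%). Without E12.5 replicate 1, 228 genes were up-regulated and 214 down-regulated.

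Most forelimb changes had the same sign in the hindlimb, where 282 genes were up-regulated (1.55%) and 72 were down-regulated (0.396%), 1.95% together. Of the 258 genes up-regulated in forelimb 190 were also up-regulated in hindlimb (73.6% of the forelimb and 67.4% of the hindlimb genes), and 257 had a positive change there. Of the 235 down-regulated genes 59 were also called in hindlimb (25.1% of the forelimb and 81.9% of the hindlimb genes), and 233 had a negative change. The up-regulated genes had a median change of 1.32 in forelimb and 1.30 in hindlimb, and the down-regulated genes −1.15 in forelimb and −0.86 in hindlimb. The genes were chosen by their forelimb change, so the limbs were not compared by these medians.

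**Figure D4:**
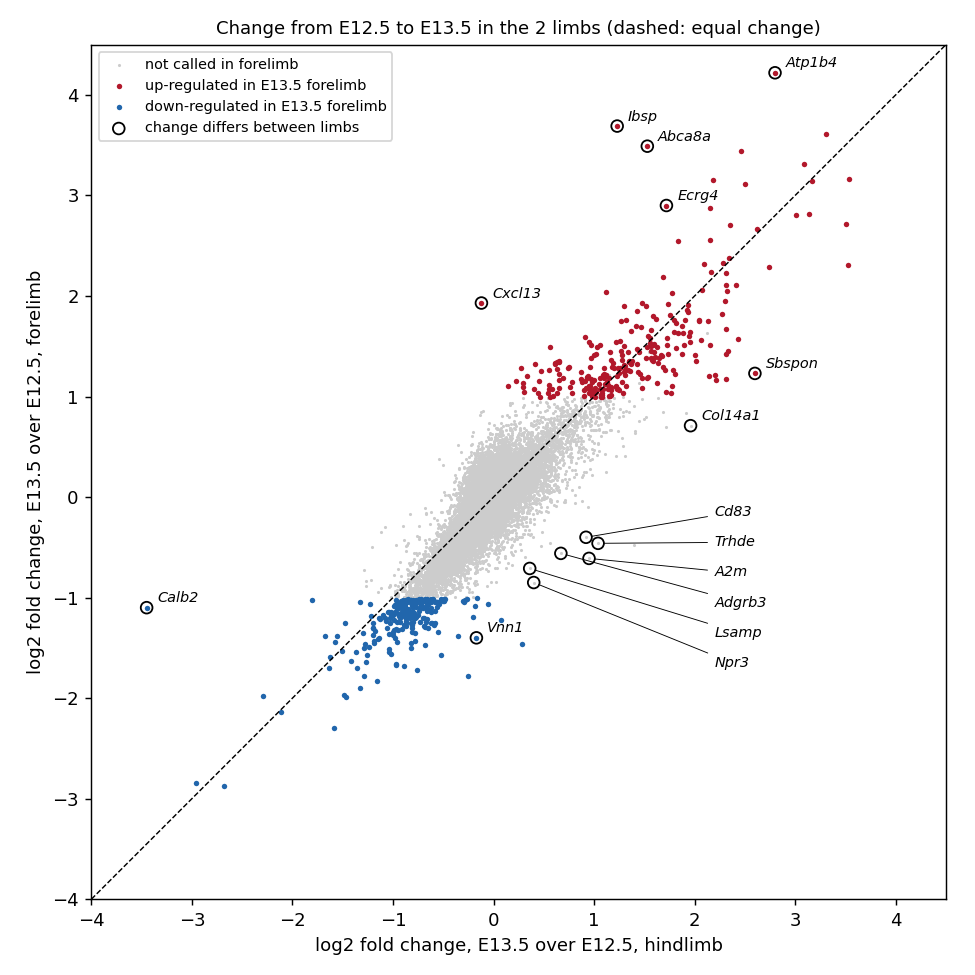
Log2 fold change of E13.5 over E12.5 in forelimb (y axis) against that in hindlimb (x axis) for all 18194 genes, in red or blue where called in forelimb, with the dashed line at equal change. The 15 circled genes are those whose change differed between limbs, among them Ibsp (3.69 in forelimb, 1.23 in hindlimb) and Calb2 (−1.10 and −3.45).

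The change itself differed between limbs for 15 genes in the test of the difference, 6 with the higher change in forelimb (0.033%) and 9 with the lower (0.0495%), 0.0824% together. Limb type and the developmental lag of the hindlimb cannot be told apart in these differences. Ibsp differed most. It stood at 3.58, 5.44, 4.16, 5.26 and 3.59 in E13.5 hindlimb, against 3.05 to 3.26 in E12.5 hindlimb, so that the forelimb change exceeded the hindlimb change by 2.46 (limma adjusted p = 3.66e-06). Calb2, calretinin, a calcium-binding protein, had 5.61 to 6.02 in E13.5 forelimb and 6.70 to 7.27 in E12.5 forelimb. In hindlimb it had 5.87 to 6.23 at E13.5 and 9.21 to 9.90 at E12.5, so its larger decrease there left both limbs close at E13.5 (difference 2.35, limma adjusted p = 1.68e-08). Cxcl13, a chemokine, changed by 1.93 in forelimb and by −0.12 in hindlimb (limma adjusted p = 0.000163). Abca8a, Atp1b4 and Ecrg4 rose in both limbs and more in forelimb, with differences of 1.96, 1.42 and 1.18. When only the 20 arrays compared were fitted, Ecrg4, Atp1b4, Abca8a, Cxcl13 and Ibsp did not pass (adjusted p from 0.00111 to 0.0103), which left Calb2 alone of the 6. With the replicate block, Ecrg4, Atp1b4 and Cxcl13 did not pass (adjusted p from 0.00342 to 0.0189).

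Genes with the lower change in forelimb included A2m, α2-macroglobulin, a protease inhibitor. It had 6.76 to 7.03 in E13.5 forelimb, against 7.29 to 7.75 in E12.5 forelimb, and 7.25 to 7.60 in E13.5 hindlimb, against 6.25 to 6.57 in E12.5 hindlimb. The limbs thus moved in opposite directions, and the difference was −1.56 (limma adjusted p = 9.28e-06). Trhde, a peptidase, Cd83, an immunoglobulin family surface protein, and Npr3, the natriuretic peptide clearance receptor, had differences of −1.50, −1.33 and −1.25. Sbspon, a secreted thrombospondin-domain protein, rose in both limbs, by 1.23 in forelimb and 2.60 in hindlimb (difference −1.36). Sbspon did not pass in the fit on the arrays compared (adjusted p = 0.00782), with the replicate block (0.00196) or with the probe set of highest mean (−0.91). Of the other genes with the lower forelimb change, Lsamp lost the call in the fit on the arrays compared, and Npr3, Adgrb3 and Lsamp lost it with the replicate block. In all, 8 of the 15 genes kept the call in the fit on the arrays compared and 8 with the block. Grouped by source name, 6 kept it, and Calb2, A2m, Cd83 and Npr3 were among those that lost it. Of the genes named above, Tbx5, Aldh1a2 and Igf1 had differences of −0.99, −1.74 and 1.00 that did not pass the test (limma adjusted p = 0.0103, 0.0142 and 0.0066). The hindlimb change of Aldh1a2 was 0.28 and that of Igf1 0.27, neither of which was called.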

How the data were processed

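The authors derived expression values with the Robust Multichip Average (RMA) method at default settings, in a version not given in the sources used here, and deposited them as intensities on a linear scale for 45101 probe sets on 51 arrays. Log2 of these intensities was taken here. Log2 values of the 34958 probe sets with exactly 1 gene symbol in the platform annotation were averaged per gene (18194 genes, 9012 with 2 or more probe sets). The 932 probe sets with several symbols and the 9211 not listed were left out. All 14 groups of tissue and stage, taken from the titles, entered 1 linear model fit, with 37 residual degrees of freedom, in limma 3.58.1 under R 4.3.3. A gene was called at a fold change of 2 or greater and a Benjamini-Hochberg adjusted p under 0.001, over all genes. Log2 values of the probe sets ran from 2.29 to 14.79 with a median of 5.31, and the number of arrays limits the precision. Single measures were compared with an exact permutation test.

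On simulated data, 43 of 100 genes changed 2-fold were called in this comparison (98 by adjusted p alone), 100 of 100 changed 4-fold and 0 of 17994 unchanged genes. The 2-fold change lay at the calling threshold, so a shortfall there was built in. The simulated noise was independent between arrays, with no litter effect, so false calls due to litter were not tested. Alternatives were other samples in the fit, quantile normalization, median centring, the probe set of highest mean, a minimum group mean of 6, a trended prior, grouping by source name, a replicate block and leaving out single arrays. Named are the 15 highest and 15 lowest called genes, called members of the gene lists or the largest change where none was called, landmark genes and the genes that differ most between limbs. Others are named as picked after their values were seen, as Mirg, Col14a1, Adgrb3, Vnn1, Lsamp, Cpa3, Cma1, Malat1 and Kcnq1ot1 were. The members and lists were chosen with earlier results of these data known. Promoter sequences are RefSeq's, on GRCm38.p6. Runx2, Spp1 and other list genes without a value were not analysed here.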

Additional observations from a re-analysis of the deposited data

Results flagged for a closer look

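In 374 groups of 5 forelimb arrays of the named genes, 28 held 1 array that stood apart from the others. Chance flags about 1 in 20 groups, and genes share arrays. At E13.5, replicate 2 was apart in Susd5 (8.16, others 8.56 to 8.68), Col11a2 (7.29, others 7.61 to 7.71), Ldb3 (6.79, others 6.40 to 6.51), Hba-x (11.44, others 11.97 to 12.04), Cspg4 (8.17, others 8.45 to 8.54), Meg3 (9.55, others 9.68 to 9.73) and Srl (10.74). The other E13.5 arrays apart were replicate 4 in Chrnb1 (7.52), replicate 1 in Pmaip1 (6.65) and replicate 5 in Col14a1 (7.95) and Actn2 (10.85). At E12.5, replicate 1 was apart in Dpt (3.81), Shox2 (10.504), Nog (7.31), Htra1 (8.11), Cma1 (3.79), Actn2 (9.01), Myom2 (5.22), Srl (9.15), Gdf10 (9.42) and Sln (5.76), replicate 2 in Bmp7 (8.41) and Pax9 (6.65), replicate 5 in Ecrg4 (4.35), Myod1 (6.15), Atp2a1 (8.31) and Myl3 (5.33), and replicate 3 in Cd44 (5.49).

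The change of E13.5 over E12.5 differed between forelimb and hindlimb in 15 genes (limma, test of the difference). Limb type and developmental timing cannot be told apart here. The forelimb change was the higher in Ibsp (by 2.46), Calb2 (2.35), Cxcl13 (2.05), Abca8a (1.96), Atp1b4 (1.42) and Ecrg4 (1.18). It was the lower in A2m (−1.56), Trhde (−1.50), Sbspon (−1.36), Cd83 (−1.33), Npr3 (−1.25), Col14a1 (−1.25), Adgrb3 (−1.23), Vnn1 (−1.22) and Lsamp (−1.07).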

How the results depend on the processing

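The 258 up-regulated genes became 343 after quantile normalization, 310 after median centring, 302 with the probe set of highest mean, 226 with a minimum group mean of 6 and 342 when grouped by source name, and the 235 down-regulated genes 138, 159, 283, 206 and 300. The cause was not tested. Of the main calls, 253 up-regulated and 138 down-regulated genes remained after quantile normalization, and 258 and 159 after centring. At an adjusted p under 0.05 with no fold threshold, 3289 were higher and 5618 lower, and the limb difference gave 211 and 285 genes. Leaving out 1 array gave 228 to 280 up-regulated and 208 to 274 down-regulated genes, and 386 of the 493 called genes kept the call each time. No call changed sign.

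For the 6 and 9 genes whose change differed between limbs, leaving out 1 array gave 6 to 10 (10 without hindlimb E13.5 replicate 4) and 8 to 17 (17 without forelimb E12.5 replicate 1). The fit on the arrays compared gave 1 and 8, median centring 10 and 8, and grouping by source name 7 and 2. That grouping places the array titled forelimb E12.5 replicate 5 among the hindlimbs. It also places the array titled hindlimb E11.5 replicate 5 in the E12.5 forelimb group. With the replicate block, 261 genes were up-regulated and 235 down-regulated between the forelimb stages, and 3 and 8 differed between limbs, of which 8 were among the 15. The paper gives a single total of embryos for the fore- and hindlimb samples, but the sources do not tie the array numbers to embryos. The main test of the difference treated the arrays as independent. Same-numbered forelimb and hindlimb arrays had correlated deviations of 0.03 to 0.25 at E13.5 and 0.07 to 0.35 at E12.5, the highest at each stage being between arrays of the same number. Not every pair passed 0.1 and not every array correlated best with its own number, so the block is given as an alternative. The forelimb stages are different litters.

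Of 154 named called genes, 11 lost the call after quantile normalization, 7 after median centring, 19 with the probe set of highest mean and 6 when grouped by source name, and none in the fit on the arrays compared or with the replicate block. In all, 21 lost it without at least 1 single array, 16 of them without E12.5 replicate 1. Of genes near the floor of the arrays, such as Shh and Hba-a1, changes could not be detected at these signals. Scx, not called as the mean of its probe sets, was down-regulated with the probe set of highest mean (−1.05).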
